A study of Mus musculus with 6 samples.

Results

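Histone genes were followed in RNA-seq libraries of LSK cells, the lineage-negative, Sca-1+ c-Kit+ bone marrow fraction that holds haematopoietic stem cells and early progenitors. The members were taken by symbol, as every gene whose symbol starts with Hist1h, Hist2h, Hist3h, Hist4h, H2af or H3f3, plus H1f0 and H1fx. This gave 82 of the 24063 gene symbols in the files. Of these, 68 were the clustered Hist genes, treated here as replication-dependent, and 14 were variant (replacement) histone genes. All mice were C57BL/6 and all had received pIpC, a synthetic double-stranded RNA that raises interferon. The 3 Asxl2-/- samples came from mice with an interferon-inducible Mx1-cre transgene and an Asxl2 allele whose exon 11 is flanked by loxP sites, and the 3 control samples are labelled wild type, with titles that name the same Mx1-cre. Mx1-cre acts in any cell that answers interferon and not in stem cells alone, and the labels give neither age nor sex. The comparison asks which histone genes differ in transcript abundance when LSK cells lack Asxl2, a chromatin-associated protein of the Polycomb and BAP1 deubiquitinase circuit.

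Core histones H2A, H2B, H3 and H4 build the nucleosome, and linker histone H1 binds where DNA enters and leaves it. Replication-dependent genes supply the bulk of histone protein during S phase. Their mRNAs are unusual in that they mostly end just after a conserved stem-loop in the 3′ UTR and carry no poly(A) tail, so a poly(A)-selected library holds them poorly. Variant genes are mostly polyadenylated and expressed outside S phase too, and their products, such as H3.3, H2A.Z, macroH2A and H1.0, replace the canonical histones at particular sites or in cells that divide less.

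The stem-loop was present in most of the clustered genes and in 1 variant gene. It was searched on the transcript strand of annotated 3′ UTRs (GENCODE vM1, NCBIM37) as GG, 3 bases, TTTT, 1 base, A, 3 bases and CC, with all 6 stem positions able to pair. It was found in 43 of the 58 replication-dependent genes with an annotated 3′ UTR (74.1%), in 1 of 10 variant genes with one and in 7 of 19939 other protein-coding genes (0.0351%). The commonest form, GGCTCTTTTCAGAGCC, stood in 28 replication-dependent genes. The sites below are those of the most abundant clustered gene, of a linker H1 gene, of the clustered gene with the smallest p-value and of the only variant gene with a match, with the stem-loop in capitals and its flanks in lower case, 5′ to 3′. The stem-loops lie in the 3′ UTR at chr13:22132835-22132850 (minus strand), chr13:23831381-23831396 (plus), chr11:58762851-58762866 (plus) and chr9:44143323-44143338 (plus) of NCBIM37, in this order.
Hist1h4i: cttaaaGGCCCTTTTTAGGGCCaccacaaa
Hist1h1c: ccaaaaGGCTCTTTTCAGAGCCaccactcc
Hist3h2ba: cccaaaGGCTCTTTTCAGAGCCaccttcca
H2afx: cacaaaGGCCCTTTTAAGGGCCaccacctc

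The promoters of the 2 kinds of linker H1 gene differ in the boxes they hold. Promoter windows of 250 bases before to 50 after the start came from RefSeq (GRCm38.p6), and 74 of the 82 members matched. The H1 box AAACACA, an element named for H1 genes, was found on either strand in 5 of 6 replication-dependent H1 promoters and in 0 of 2 variant H1 promoters, against 7.14% of all 27025 promoters. It also stood in 2 of 18 H2A and 2 of 16 H2B replication-dependent promoters and in 1 of 2 variant H3 promoters. CCAAT was found on either strand in every replication-dependent H1, H2A, H2B and H3 promoter matched (6, 18, 16 and 10), in 3 of 12 H4 promoters, and in 37.9% of all promoters. Among variant promoters it stood in 0 of 2 H1, 6 of 8 H2A and 2 of 2 H3, so it was not particular to the clustered genes. TATAAA was found in 4 of 6 H1, 11 of 18 H2A, 8 of 16 H2B, 4 of 10 H3 and 8 of 12 H4 promoters, in 1 of 12 variant promoters (H3 class) and in 14.2% of all. A match describes the letters only. The promoters of Hist1h1c (chr13:23738557-23738856, plus strand) and H1f0 (chr15:79027962-79028261, plus strand) are given because both encode linker histones and only the second belongs to a gene that changed. Capitals mark the H1 box and CCAAT.
Hist1h1c: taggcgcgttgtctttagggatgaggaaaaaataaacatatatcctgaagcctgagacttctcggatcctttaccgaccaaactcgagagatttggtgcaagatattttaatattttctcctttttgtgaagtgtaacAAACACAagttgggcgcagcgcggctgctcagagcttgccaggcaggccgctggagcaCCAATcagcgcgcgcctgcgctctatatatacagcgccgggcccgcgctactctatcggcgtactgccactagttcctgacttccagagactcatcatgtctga
H1f0: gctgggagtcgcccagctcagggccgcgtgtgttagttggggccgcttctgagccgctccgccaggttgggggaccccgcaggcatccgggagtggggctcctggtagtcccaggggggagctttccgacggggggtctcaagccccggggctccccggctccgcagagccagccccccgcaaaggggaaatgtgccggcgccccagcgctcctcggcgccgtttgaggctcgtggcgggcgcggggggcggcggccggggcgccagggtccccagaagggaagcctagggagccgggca

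The values are read counts per RefSeq transcript (mm10), deposited in files of 2 kinds. Asxl2-/- replicates 1 and 3 and control replicate 2 have 1 count per transcript (gene-count files, 25528540 to 29136012 counts in all). Asxl2-/- replicate 2 and control replicates 1 and 3 have 1 count per exon (exon-count files, 53147729 to 55032075 counts), in which a read across a junction can be counted more than once. Differences were therefore read within each kind of file, and the kind of file entered the test as a covariate. The target gene checked the labels in the exon-count files, where exon 11 of Asxl2 (chr12:3496225-3496936, mm10) held 0.583% of the counts over the 12 exons of the transcript in Asxl2-/- replicate 2 against 10.3% and 12.0% in control replicates 1 and 3. Total Asxl2 counts did not separate the groups, at 3533, 4804 and 4213 against 4433, 3543 and 4105 in replicates 1, 2 and 3. Of the sort markers, Kit was at 280 to 431 CPM (counts scaled to a common library size) over the 6 libraries. Ly6a, which encodes Sca-1, was at 52.6 and 57.6 CPM in the knockout against 260 in the control gene-count library. In the exon-count libraries it was at 69.1 in the knockout against 40.5 and 148 in the controls. Xist was higher and all 4 Y-linked genes tested were lower in the Asxl2-/- libraries, so sex and genotype cannot be told apart for any result that follows. Across all genes, 331 of 14145 tested (2.34%) passed an adjusted p of 0.05 in edgeR's quasi-likelihood test, 288 raised (2.04%) and 43 lowered (0.304%).

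Replication-dependent transcripts were scarce. The 68 genes together took 2943 to 3270 counts in the gene-count libraries, 0.0101% to 0.0125% of the total, and 0.00584% to 0.00699% in the exon-count libraries. The 14 variant genes took 0.271% to 0.346%, which was 24.3 to 30.0 times as many counts with gene-count and 43.8 to 46.5 times as many with exon-count files. The 95% Wilson interval of the clustered genes' share, which covers counting error only, was 0.0111% to 0.0120% in Asxl2-/- replicate 1 and 0.0121% to 0.0129% in Asxl2-/- replicate 3, both above the 0.00978% to 0.0105% of control replicate 2. In the exon-count files the interval of Asxl2-/- replicate 2, 0.00669% to 0.00713%, overlapped that of control replicate 1, 0.00677% to 0.00721%, and lay above that of control replicate 3, 0.00564% to 0.00605%. The 2 control libraries of that kind differed more from each other than the knockout library did from the nearer of them. These shares are of raw totals. In CPM the 68 genes summed to 104 and 115 in the knockout against 103 in the control gene-count library. In the exon-count files the sums were 71.4 against 71.2 and 65.6. Hist2h2be alone held 519 and 381 counts in the gene-count knockout libraries and 211 in the control library.

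Per length, the contrast was as large. Levels are the mean of the 3 gene-count libraries, Asxl2-/- replicates 1 and 3 and control replicate 2, and so mix the genotypes. The median level was 1.16 CPM per kilobase over the 68 clustered genes and 44.0 over the 14 variants, and 42 clustered genes were above 1. In the H3 class, the 12 replication-dependent genes summed to 12.2 CPM per kilobase, whereas H3f3a and H3f3b, which both encode H3.3, summed to 483. Clustered genes with a stem-loop and more than 100 annotated bases after it had a median of 1.69 (n = 16), those with at most 100 bases 1.20 (n = 27), and those with no match or no annotated 3′ UTR 0.959 (n = 25), levels being on the same per-kilobase scale. The ranges of these 3 sets overlapped widely, but the 16 genes of the first included Hist1h4i (28.0), Hist1h2bg (20.7), Hist1h1c (16.3) and Hist3h2a (13.8), the highest of the second was Hist1h2bj (3.85) and the highest of the third was Hist1h2bc (17.3). The plot of levels by class shows these few genes above the rest of each class. The bases after the stem-loop are those of GENCODE vM1, whereas counts and lengths are those of the RefSeq transcript, which can leave them out. Hist1h1d has 3050 such bases and a RefSeq length of 776, and Hist1h2ac 2010 and 487.

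**Figure D1:**
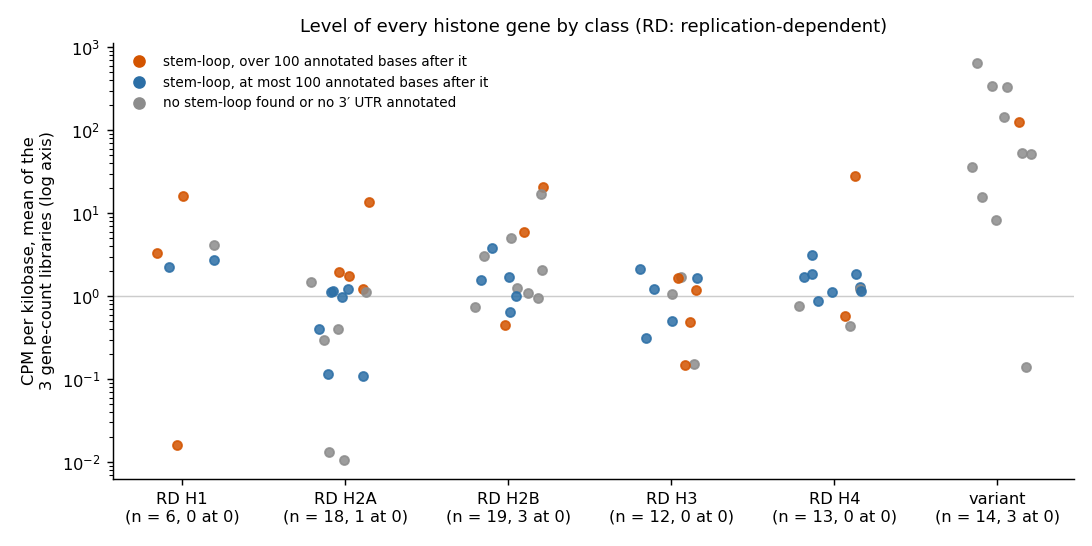
Mean CPM per kilobase of the 3 gene-count libraries (log axis) for each histone gene, by class, coloured by whether a stem-loop was found and how much annotated transcript follows it. Genes at 0 are counted under the axis and not drawn. Most replication-dependent (RD) genes sit near 1, 1 H1, 1 H2A, 2 H2B and 1 H4 gene sit above 10, and 8 of 14 variants lie above the highest RD gene.

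Several clustered genes were silent or could not be counted apart. Hist1h2aa and Hist1h2ba, which encode testis H2A and H2B, had 0 counts in all 6 libraries, which allows a share of up to 1.18e-05% in the shallowest library, and Hist1h1t, the testis H1, had at most 3 counts. Another 10 symbols overlap a second histone symbol in the annotation (Hist1h2ao with Hist1h2ap, Hist1h2bq with Hist1h2br, Hist1h4m with Hist1h4n, Hist2h2aa1 with Hist2h2aa2, and Hist2h3c1 with Hist2h3c2). Reads on the shared bases cannot be told apart between the symbols of a pair. Hist2h3c1 and Hist2h3c2 had the same counts in every library, so sums over the 68 clustered genes can hold such reads more than once. The overlap covers 81.9% to 100% of each transcript except Hist1h4n, where it covers 50%, and of the 10 only Hist1h4m and Hist1h4n passed the filter and are counted below. Many of the remaining core histone genes are near-identical in their coding sequence, and reads that match several copies may be lost or split. In all, 11 clustered genes were under 10 counts in every library and 6 reached 100 counts in every library. The low-count filter left 48 of the 68 clustered genes and 10 of the 14 variants. The 20 and 4 left out comprise Hist1h1t, 9 H2A, 4 H2B, 4 H3 and 2 H4 genes, and H2afb1, H2afb2, H2afb3 and H2afy3.

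None of the 48 replication-dependent genes tested changed at an adjusted p of 0.05, against 2.34% of all genes. At an unadjusted p under 0.05 there were 2 (Hist3h2ba and Hist2h2be), against 27.7% of all genes, and DESeq2 and limma-voom called 0 as well, DESeq2 giving an adjusted p for 41 of the 48. Log2 fold changes ran from -1.02 to 1.10 with a median of 0.03 (all genes 0.00), 27 being positive and 21 negative, or 23 and 25 with median-ratio scaling. The median standard error was 0.38, compared with 0.13 for the variants and 0.14 for all genes, so most clustered genes were measured less precisely. Those most abundant per kilobase had smaller errors than the clustered median, though only that of Hist1h4i (0.14) was down to the median of all genes. The others were 0.18 for Hist1h2bg and Hist3h2a, 0.19 for Hist1h1c and 0.22 for Hist1h2bc, beside 0.18 for H1f0. The groups were separate in both kinds of file for 17 of the 48 genes, 9 higher and 8 lower, against 48.6% of all genes.

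The direction of the clustered genes did not repeat between the kinds of file, which hold different libraries. The sign of the difference was the same in both for 24 of 48 genes (50%), against 68.0% of all genes and 7 of 10 variants. The median over the 48 was -0.17 with gene-count and 0.25 with exon-count files. Across genes, which are not independent replicates, Pearson's r between the 2 differences was -0.03 for the clustered genes, 0.97 for the variants and 0.36 for all genes. Spearman's rho, which depends less on single extreme genes, was 0.04, 0.84 and 0.42 in the same order. Only 6 clustered genes reached 100 counts in every library, and genes of like counts were not compared. The plot of one difference against the other shows the clustered genes spread around 0 in all 4 quadrants, while H2afy2, H1f0 and H1fx stand out in the upper right.

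**Figure D2:**
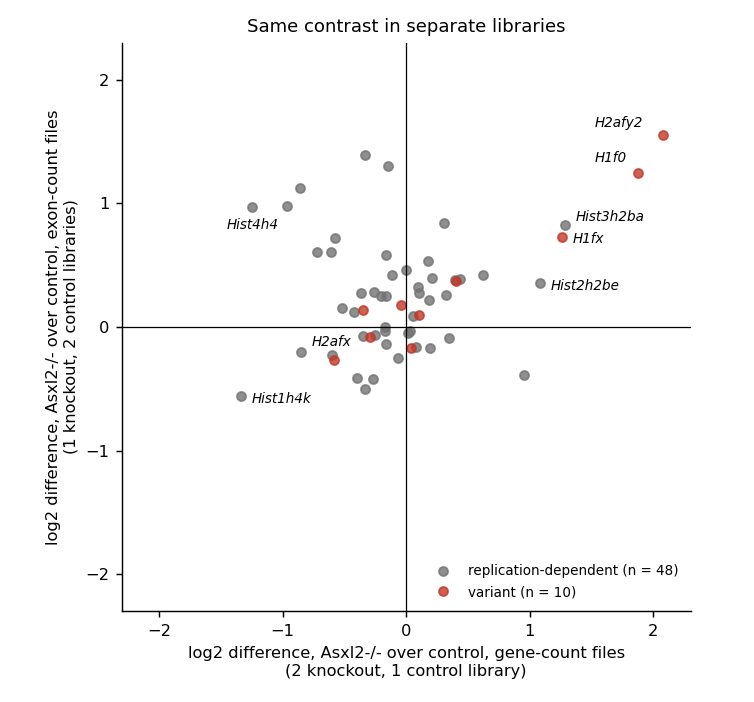
Log2 difference between Asxl2-/- and control libraries in the gene-count files (horizontal) and in the exon-count files (vertical) for the 58 tested histone genes, each point a gene. H2afy2 lies at 2.08 and 1.56 and H1f0 at 1.88 and 1.25, whereas 24 of 48 replication-dependent genes change sign between the axes.

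Of the replication-dependent classes, linker H1 had the highest median level, 3.04 CPM per kilobase, and 5 of its 6 genes were above 1. Hist1h1c, which encodes H1.2, had 287, 390 and 400 counts in the knockout and 444, 324 and 378 in the control replicates 1, 2 and 3, a log2 fold change of -0.03 ± 0.19 (SE) with an adjusted p of 0.933 in edgeR. The groups overlapped in the gene-count files, and the sign of this value turned with the scaling. Hist1h1b (H1.5), Hist1h1d (H1.3) and Hist1h1a (H1.1) had values of 0.32 ± 0.24, 0.36 ± 0.25 and 0.61 ± 0.40. Hist1h1d was higher in the knockout in both kinds of file, at 2.66 and 2.75 against 2.36 CPM and at 1.80 against 1.40 and 1.10 CPM. None of these passed the test.

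Among the H2A genes, the most abundant was Hist3h2a, with 180, 228 and 220 counts against 242, 199 and 201 and a log2 fold change of -0.01 ± 0.18, a value whose sign also turned with the scaling. Hist1h2ae and Hist1h2ac, the next in level, were at 0.20 ± 0.31 and 0.15 ± 0.37. No H2A gene had an unadjusted p under 0.05.

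The H2B genes held the 2 clustered genes with the smallest p-values. Hist3h2ba (chr11:58948911-58949372, mm10, 1 exon), a gene of the small cluster on chromosome 11, had 80 and 117 counts in the gene-count knockout libraries against 39 in the control, and 85 in the exon-count knockout library against 44 and 44. Every knockout library exceeded every control library of its kind. The log2 fold change was 1.10 ± 0.30, 1.28 in the gene-count and 0.83 in the exon-count files, with an adjusted p of 0.0969 in edgeR. Hist2h2be (chr3:96221121-96223738, 1 exon, an H2B gene with a long annotated transcript) had 18.4 and 13.4 CPM against 7.33, and 9.47 against 8.46 and 6.50. Its log2 fold change was 0.72 ± 0.26 and its adjusted p 0.146, the knockout libraries again being the higher in both kinds of file. This value rested in part on single libraries, coming to 0.34 without control replicate 2 (adjusted p of 0.576) and 1.12 without Asxl2-/- replicate 2 (0.0796). When only genes with 1 exon were fitted, where the 2 kinds of file count in the same way, the adjusted p was 0.0418 for Hist3h2ba and 0.155 for Hist2h2be, in a fit that called 5.27% of its 683 genes. Hist1h2bg, more abundant than these per kilobase, had 237, 226 and 301 against 272, 282 and 234 counts and was at -0.15 ± 0.18. Hist1h2bc was at 0.01 ± 0.22, negative with median-ratio scaling. Hist1h2bm had 0.63 ± 0.36 and Hist1h2bb -0.43 ± 0.29. Of the 15 H2B genes tested, 12 had positive values, or 9 with median-ratio scaling and 13 with library size only, and 6 did so in the gene-count files.

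No H3 or H4 gene passed the test. Of 8 H3 genes 5 were negative, a count that turned to 3 with scaling by library size only, and the median was -0.04. Of 11 H4 genes, the overlapping Hist1h4m and Hist1h4n among them, 9 were negative under each scaling, with a median of -0.17, but 10 were negative with gene-count and 5 with exon-count files. Hist1h3d, Hist1h3c and Hist1h3g had log2 fold changes of -0.54 ± 0.41, -0.43 ± 0.35 and -0.36 ± 0.35, each lower in the knockout in both kinds of file, and Hist1h3a was at -0.01 ± 0.45, which turned positive with library size only. Hist1h4i, the most abundant clustered gene, had 10.6 and 10.1 CPM in the knockout against 13.1 in the gene-count files and 7.74 against 7.85 and 8.54 in the exon-count files. Its log2 fold change was -0.21 ± 0.14 with an adjusted p of 0.367. Hist1h4k had the lowest value of all, -1.02 ± 0.46 with an adjusted p of 0.208, on 12, 17 and 6 counts against 22, 25 and 27. Hist1h4d and Hist1h4b were at -0.14 ± 0.34 and 0.08 ± 0.42.

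**Figure D3:**
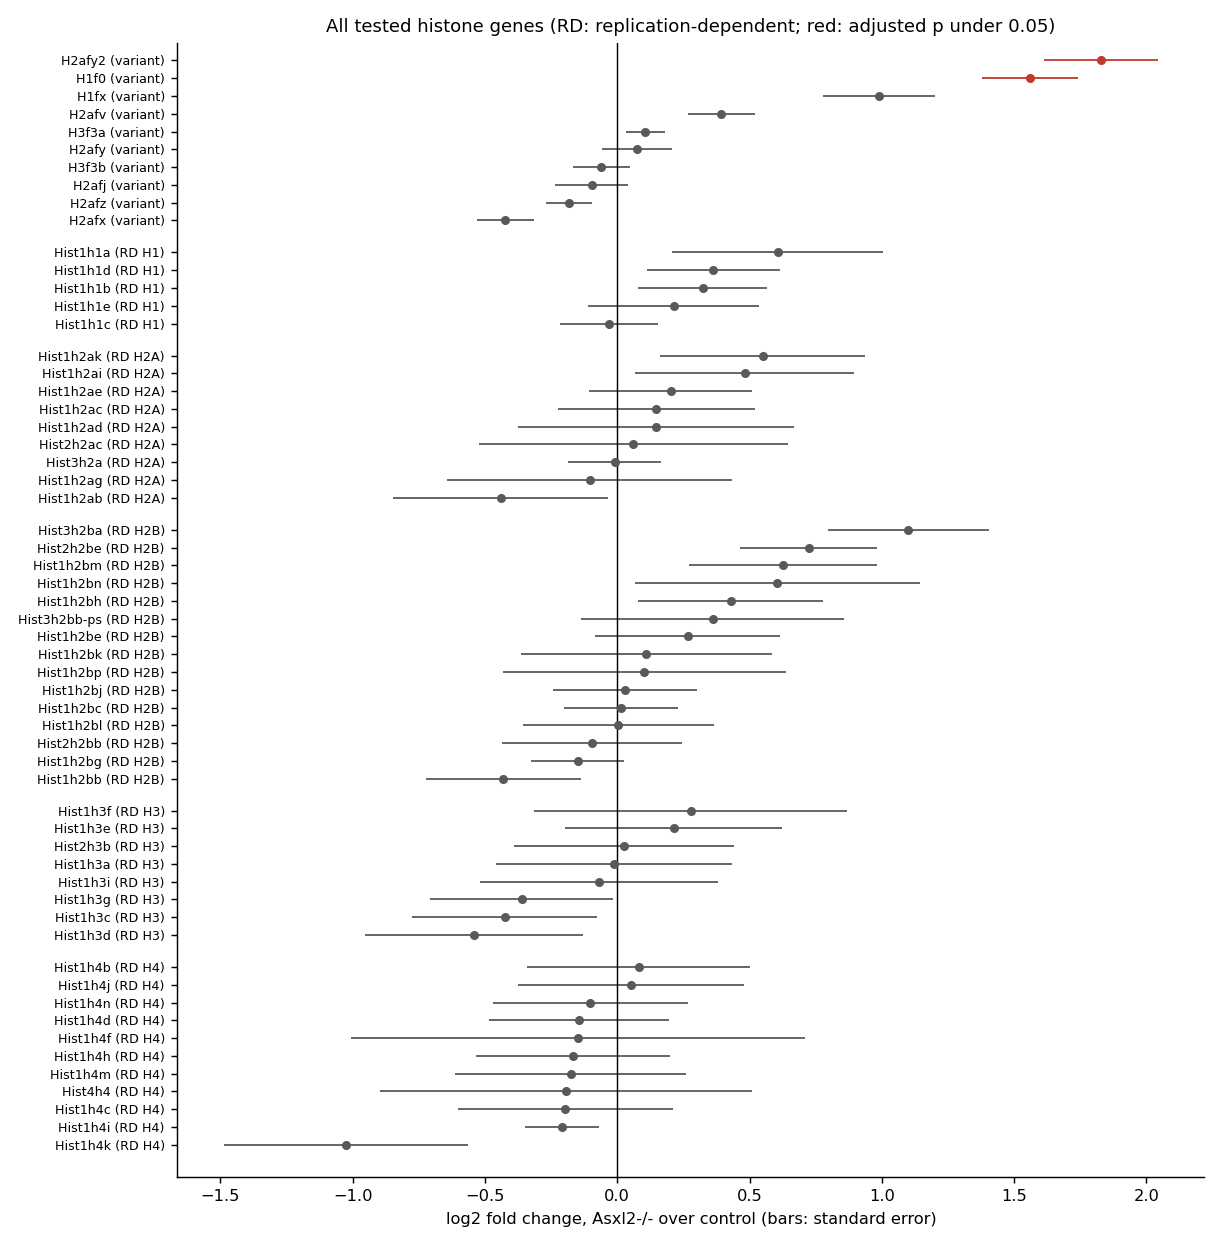
Log2 fold change of Asxl2-/- over control (horizontal axis, bars standard error) for the 58 histone genes tested, grouped into variants and replication-dependent (RD) classes, with genes past an adjusted p of 0.05 in red. H1f0 and H2afy2 are the red points, and most RD bars cross 0.

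Of the 10 variant genes tested, 2 rose and none fell. Both rises, in H1f0 and H2afy2, compare with 2.04% of all genes raised. At an unadjusted p under 0.05 there were 5 of 10 (27.7% of all genes), and DESeq2 called 4 (17.1% of all genes), adding H1fx and H2afx, whereas limma-voom called the same 2 (3.04% of all genes). The groups were separate in both kinds of file for 7 of 10 (48.6% of all genes), 5 higher (25.4%) and 2 lower (23.3%). The median log2 fold change of the variants was 0.09.

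H1f0 encodes the replacement linker histone H1.0, which is known to accumulate in differentiated or slowly dividing cells. It lies at chr15:79028212-79030500 (mm10) in 1 exon. Its counts in the knockout replicates 1, 2 and 3 were 4726, 5894 and 4513, and in the control replicates 2740, 1267 and 1976. Every knockout library was above every control library, in CPM 168 and 159 against 44.0 in the gene-count files and 111 against 52.6 and 41.7 in the exon-count files. The log2 fold change was 1.56 ± 0.18, 2.95-fold, with an adjusted p of 0.0206 in edgeR, and it was 1.88 and 1.25 within the gene-count and the exon-count files. Leaving out Asxl2-/- replicate 1, Asxl2-/- replicate 3 or control replicate 3 ended the call (adjusted p of 0.0798, 0.0564 and 0.127), with a log2 fold change that stayed between 1.23 and 1.89 over the 6 omissions.

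H1fx encodes H1X, the other replacement H1 (chr6:87980421-87981482, 1 exon), and its value had the sign of H1f0's without passing the threshold. It had 652, 920 and 521 counts in the knockout and 627, 245 and 432 in the control replicates. The knockout libraries were at 17.3 to 23.1 CPM and the control libraries at 8.51 to 12.0 CPM, with no overlap. The log2 fold change was 0.99 ± 0.21 with an adjusted p of 0.0676 in edgeR, 0.00113 in DESeq2 and 0.0418 among genes with 1 exon.

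As a share of the counts per kilobase on all 8 H1 genes, every one of which has 1 exon, H1f0 made up 60.8%, 58.0% and 57.6% in the knockout replicates 1, 2 and 3, and 44.5%, 35.3% and 41.6% in those of the control. These shares are of polyadenylated and captured transcripts and not of H1 protein.

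H2afy2 encodes macroH2A2, a histone H2A variant with a large macro domain that is associated with silent chromatin. It lies at chr10:61738647-61783864 with 9 exons, and 12.5% of the bases of its transcript overlap Aifm2, from which the unstranded reads cannot be told apart. It had 696, 1102 and 505 counts in the knockout and 393, 140 and 311 in the control replicates 1, 2 and 3. The knockout libraries were at 17.8 to 24.7 CPM and the control libraries at 4.86 to 7.54 CPM. The log2 fold change was 1.83 ± 0.21, 3.55-fold, with an adjusted p of 0.0212 in edgeR, and 2.08 and 1.56 within the gene-count and the exon-count files. Each of its 9 exons was higher in Asxl2-/- replicate 2 than the mean of control replicates 1 and 3, by 2.64-fold to 3.32-fold. The call ended without Asxl2-/- replicate 1 (adjusted p of 0.0656) or control replicate 3 (0.127), the log2 fold change running from 1.56 to 2.13 over the 6 omissions.

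The paralogue H2afy, which encodes macroH2A1, was the most abundant histone gene, at 657 ± 87.5 CPM per kilobase (SD, n = 3 gene-count libraries). It did not separate the groups. It had 40983 and 31536 counts against 37468 in the gene-count files and 75477 against 68225 and 57553 in the exon-count files, a log2 fold change of 0.07 ± 0.13 with an adjusted p of 0.747. Of the counts per kilobase on the 2 macroH2A genes, H2afy2 held 1.71% and 1.62% in the knockout and 0.382% in the control gene-count library, so macroH2A1 transcripts outnumbered those of macroH2A2 in both genotypes.

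H2afy is spliced with either of 2 mutually exclusive exons, and the exon-count files separate them. The 91-base exon (chr13:56088252-56088342) held 524 of the 7289 counts on the pair in Asxl2-/- replicate 2, 7.19% (Wilson 95% interval 6.62% to 7.80%). It held 5.96% (5.41% to 6.56%) in control replicate 1 and 5.94% (5.35% to 6.59%) in control replicate 3, the other exon being 100 bases long (chr13:56089758-56089857). The knockout share lay above both controls beyond counting error, but with 1 knockout library there is no test of genotype. Hist1h2bc, a clustered gene with 2 annotated exons, had 52.7%, 52.4% and 49.9% of its counts on the exon with the higher coordinates (chr13:23692176-23692480) in the same 3 libraries, with intervals that overlap. Its reads came from both exons, several kilobases apart, in near-equal shares in each library.

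**Figure D4:**
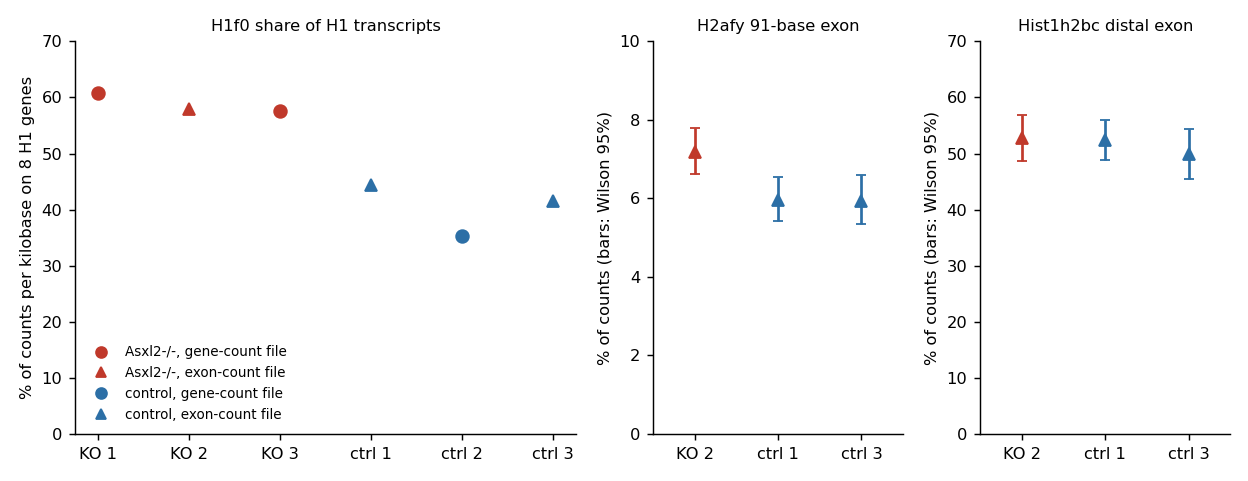
Left, share of H1f0 in the counts per kilobase on 8 H1 genes in each library. Middle and right, share of counts on the 91-base exon of H2afy and on the distal exon of Hist1h2bc in the 3 exon-count libraries, with Wilson 95% intervals. The knockout libraries (KO) lie above the controls (ctrl) in the left and middle panels and overlap them in the right panel.

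The H2A.Z genes had values of opposite sign, neither past the threshold. H2afv, which encodes H2A.Z.2, was at 102 and 83.4 CPM against 69.0 in the gene-count files and at 122 against 105 and 85.3 in the exon-count files, and was the higher in the knockout in both kinds. Its log2 fold change was 0.39 ± 0.13 with an adjusted p of 0.121. H2afz, which encodes the more abundant H2A.Z.1, was at 335 and 329 CPM against 403, and at 565 against 583 and 618, lower in the knockout in both kinds of file. Its log2 fold change was -0.18 ± 0.09 with an adjusted p of 0.231. H2afv held 16.6% and 14.2% of the pair's counts per kilobase in the knockout and 10.1% in the control gene-count library.

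H2afx encodes H2A.X, which is phosphorylated at DNA breaks, and its transcript carries the stem-loop shown above followed by 816 annotated bases. It had 4514 and 3896 counts in the knockout against 6367 in the control gene-count library and 6284 against 7260 and 6938 in the exon-count libraries. The knockout was the lower in both kinds of file. The log2 fold change was -0.42 ± 0.11 with an adjusted p of 0.0875 in edgeR and 0.00451 in DESeq2, -0.59 and -0.27 within the 2 kinds. H2afj (H2A.J) went opposite ways in the 2 kinds of file. It was lower in the knockout in the gene-count files, at 67.0 and 54.7 CPM against 76.5. In the exon-count files it was higher, at 52.0 against 48.3 and 46.3. Its log2 fold change was -0.10 ± 0.14, and the sign of this value turned with the scaling.

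Neither H3.3 gene passed the test. H3f3a was at 163 and 157 CPM against 147 and at 185 against 176 and 171, slightly higher in the knockout in both kinds of file. Its log2 fold change was 0.11 ± 0.07 with an adjusted p of 0.384. H3f3b, the more abundant of the pair at 339 ± 26.2 CPM per kilobase (SD, n = 3), was at -0.06 ± 0.11, positive with library size only. Its groups overlapped in the gene-count files, and the knockout was the lower in the exon-count files. From the highest, the levels of the variants in CPM per kilobase ran H2afy (657), H3f3b (339), H2afz (333), H3f3a (145), H2afx (127), H1f0 (54.0), H2afv (51.8), H2afj (36.2), H1fx (15.7) and H2afy2 (8.27). Each level mixes the genotypes, being a mean of Asxl2-/- replicates 1 and 3 and control replicate 2. H1f0 stood at 73.3 and 69.5 in the knockout libraries and at 19.2 in the control library. There H2afv (42.2) and H2afj (41.9) were above H1f0. In the same order H1fx stood at 21.8 and 17.3 against 8.01, and H2afy2 at 12.9 and 9.32 against 2.55. The ranges over the 3 libraries overlapped between the neighbours H3f3b and H2afz, H3f3a and H2afx, H1f0 and H2afv, and H1fx and H2afy2, and that of H1f0 also took in H2afj and reached H1fx. H2afb1 and H2afb2 had 0 counts in every library, H2afb3 had 1 count in all, and H2afy3 had 4 to 10 counts a library.

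**Figure D5:**
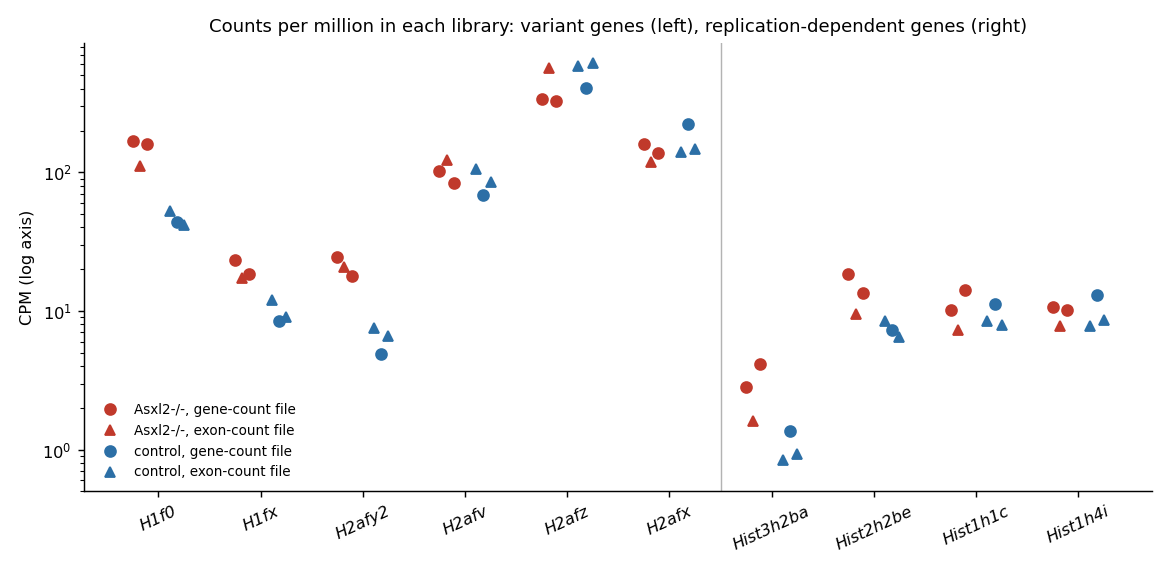
CPM in each library (log axis) for 6 variant and 4 replication-dependent genes, Asxl2-/- in red and control in blue, with circles for gene-count and triangles for exon-count files, which are to be compared within a kind. H1f0, H1fx and H2afy2 are higher in each knockout library than in any control library, and Hist1h1c overlaps.

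Genes that make, process and deposit histones did not pass the test. Of 13 factors of histone mRNA transcription and 3′ processing, 22 histone chaperones, 24 S phase genes and 12 G2 and M phase genes tested, edgeR called 0, with medians of -0.12, -0.14, -0.15 and -0.07. At an unadjusted p under 0.05 there were 1, 3, 8 and 2 (27.7% of all genes), DESeq2 called 1, 2, 7 and 1 (17.1%), and limma-voom called 0, 0, 1 and 0 (3.04%). The groups were separate in both kinds of file, with the knockout lower, for 7, 11, 14 and 3 of them (23.3% of all genes), and with the knockout higher for 0, 0, 2 and 2 (25.4%). The processing factor Srrt, of the cap-binding machinery, was at -0.32 (adjusted p of 0.103 in edgeR), and Cpsf3, the endonuclease that cuts histone pre-mRNA, at -0.22 (0.186). Daxx, which deposits H3.3 with Atrx, was at -0.47 (0.0970), and Hira, another H3.3 chaperone, at -0.28 (0.132). The cyclin gene Ccne1 was at -1.09 (0.0559), and Cdc6, which licenses origins, at -0.45 (0.0647). Plk1 and Aurka, mitotic kinases, were at -0.37 (0.0999) and -0.27 (0.159). Of the S phase genes 5 had positive values and 19 negative, or 8 and 16 with library size only, while all genes were split evenly at 7084 and 7061.

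Other RNAs that lack a poly(A) tail give a measure of what selection let through. Of 4 such transcripts tested, edgeR called 0 (2.34% of all genes) and 1 had an unadjusted p under 0.05 (27.7%). DESeq2 called 1 (17.1%) and limma-voom 0 (3.04%). The measure rests almost wholly on Rn45s, since the other listed transcripts together held 82 to 134 counts in a library. Rn45s, the ribosomal RNA precursor, had 27315 and 22247 counts in the knockout against 40684 in the control gene-count library and 21499 against 29150 and 35496 in the exon-count libraries, a log2 fold change of -0.69 with an adjusted p of 0.0689. Rpph1 was at -0.37 (0.714). Rn45s was thus lower in the knockout within each kind of file, and the part of poly(A) selection in this and in the histone values was not tested.

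Some cell type markers, including 1 of the LSK and stem cell list, moved beside H1f0 and H2afy2. All 7 B-lymphoid markers were higher, 6 past the threshold (Cd79a, Ebf1, Vpreb3, Igll1, Pax5 and Vpreb1), against 2.04% of all genes raised. Their median log2 fold change was 1.96, and their summed level was 137 to 143 CPM in the knockout and 34.2 to 47.3 in the control libraries. All 7 megakaryocyte markers were higher, 4 past the threshold (Vwf, Ppbp, Gp5 and Pf4), again against 2.04% of all genes. Their median was 1.19, with sums of 372 and 315 against 158 CPM in the gene-count files and 820.5 against 352 and 222 CPM in the exon-count files. Of the 8 LSK and stem cell markers 1 passed, Slamf1, which rose by 1.52. The list was mixed, with 6 positive and 2 negative values and a median of 0.42. Ly6a was at -1.34 (adjusted p of 0.187 in edgeR). The sums of this list were 1457 and 1183 against 1085 CPM in the gene-count files and 1068 against 1161 and 997 CPM in the exon-count files. None of the 8 erythroid markers passed (2.34% of all genes), and 5 had an unadjusted p under 0.05 (27.7%). DESeq2 called 5 (17.1%) and limma-voom 1 (3.04%). Of the values 2 were positive and 6 negative, with a median of -0.97 and sums of 397 to 571 against 799 to 1198 CPM. Of 9 granulocyte and monocyte markers 1 passed, Ltf, which rose by 3.52. This list was mixed too, with 4 positive and 5 negative values and a median of -0.0036. Its sums were 4503 and 2484 against 7878 CPM in the gene-count files and 6634 against 2549 and 4950 CPM in the exon-count files. None of 8 T and NK cell markers passed in edgeR or DESeq2 or had an unadjusted p under 0.05. Their median was 0.18, with sums of 170 and 138 against 163 CPM in the gene-count files and 179 against 143 and 136 CPM in the exon-count files. No listed marker tested was at 0 in all libraries. The part of the mix of cells in the histone differences was not tested, and in bulk samples more cells that express a gene and more RNA per cell cannot be told apart.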

How the data were processed

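RNA was measured in 6 poly(A)-selected, unstranded libraries of sorted LSK cells, 3 per genotype. The authors deposited raw read counts on mm10 RefSeq transcripts, and the submitters' processing notes name STAR, featureCounts and DESeq2 without stating versions or roles. Replicates were not pooled. Each symbol was represented by its longest transcript, and exon counts were summed over it. Groups came from the genotype labels. The members, gene lists and tests were chosen with earlier results of these data known.

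Counts were tested with edgeR 4.0.16 (limma 3.58.1, R 4.3.3) by glmQLFit and glmQLFTest, after TMM scaling and filterByExpr, with file kind and genotype as terms (3 residual degrees of freedom), two-sided and with Benjamini-Hochberg adjustment over all 14145 genes. The standard error is the fold change over the square root of the F value. CPM were scaled by TMM library sizes, and levels per kilobase used the gene-count files alone, because a junction read can be counted once per exon in the others. DESeq2 1.42.0, limma-voom, other scalings, filters, transcripts, designs and omissions of single libraries were alternatives. The fit was tested on simulated counts, where it recovered 96 of 100 changes of 2-fold and 100 of 100 of 4-fold. Of its 211 calls 15 were false. Changes were placed only in well-counted genes and with a fixed dispersion, so the simulation does not cover low-count clustered genes. Differences within 1 kind of file rest on 3 libraries and carry no test. Shares have Wilson 95% intervals, a count of 0 was read as up to 3 counts, and both cover counting error only, since reads without molecular identifiers are not independent molecules. Nothing used here says that the replicates came from separate litters or days.

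Genes were named by a rule: each member past the threshold, the 5 smallest p-values in each direction among replication-dependent and among variant genes, the 3 highest levels in each replication-dependent class, every variant tested, and from each other list the members past the threshold or otherwise the 2 with the smallest p-values. Hist1h1t, Hist1h2aa, Hist1h2ba and the overlapping pairs were named after their values were seen. Stem-loops were read from the GENCODE vM1 transcripts (NCBIM37), which is not the build of the counts, and promoters from RefSeq (GRCm38.p6). Some members of the marker lists are not reported here and were left out of the lists' counts, medians and sums.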

Additional observations from a re-analysis of the deposited data

How the results depend on the processing

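The count of genes called was the least stable quantity. Over all genes it was 331, and it moved to 2329 with DESeq2, 161 with library size only, 36 of the 683 genes with 1 exon (5.27%, against 2.34%) and 9 to 1312 when each library was left out in turn. The lowest counts came without control replicate 3 (9) and without Asxl2-/- replicate 1 (16), and the highest without control replicate 1 (1312). The count of replication-dependent genes called was 0, and 1 among genes with 1 exon (Hist3h2ba). The count of variants called was 2, and 4 with DESeq2 and 0 to 3 over the omissions, with 0 without Asxl2-/- replicate 1 or control replicate 3. The replicate numbers do not mark a stated pairing. Same-numbered libraries deviated from their group means with correlations of 0.31, 0.046 and 0.0083 for replicates 1, 2 and 3, so the numbers were taken as names only. With the file kind removed too, the correlations were 0.63, 1 and 0.38, but with 6 libraries that fit makes the residuals of the replicate 2 pair equal and the sums of the other two residuals equal in both groups, so these values were not read. With file kind plus replicate block, which leaves 1 residual degree of freedom, 5179 genes, 2 replication-dependent genes and 5 variants were called, and with the replicate block without file kind 380, 0 and 2.

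Signs turned in the genes that follow, none of which passed the threshold in either setting. With library size only, H2afj came to 0.00087, H3f3b to 0.038, Hist1h1c to 0.065, Hist3h2a to 0.086 and Hist1h3a to 0.075. Without the file kind, the values were 0.022 for H2afj, 0.19 for Hist1h1c, 0.22 for Hist3h2a, 0.22 for Hist1h2bg, 0.30 for Hist1h3a and 0.044 for Hist1h4d. With the replicate block without file kind, they were 0.053, 0.16, 0.22, 0.22, 0.28 and 0.077 in the same order, and 0.017 for Rpph1. Hist1h2bc came to -0.032 with DESeq2, -0.028 with limma-voom, -0.031 with median-ratio scaling and -0.091 with the shortest transcript, and Hist3h2a to 0.00028 with at least 10 counts in every library. Over the 6 omissions the lowest and highest log2 fold changes were -0.12 and 1.34 for Hist1h1a, -0.33 and 0.14 for H2afj, -0.17 and 0.054 for H3f3b, -0.19 and 0.11 for Hist1h1c, -0.11 and 0.033 for Hist3h2a, -0.093 and 0.40 for Hist1h2ac, -0.19 and 0.22 for Hist1h2bc, -0.23 and 0.23 for Hist1h3a, -0.41 and 0.12 for Hist1h4d, -0.11 and 0.27 for Hist1h4b, -0.021 and 0.17 for H2afy, -0.76 and 0.038 for Rpph1 and -0.064 and 0.45 for Cd247. The cause of these turns was not tested.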
